A study of Mus musculus with 2 samples.

Results

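The myocyte enhancer factor 2 (Mef2) family and the class IIa histone deacetylases that bind it were followed in mouse osteoblast cultures. They are 8 genes, Mef2a, Mef2b, Mef2c, Mef2d, Hdac4, Hdac5, Hdac7 and Hdac9, out of 18193 genes with a probe set of 1 symbol on the array. All probe sets annotated with a member symbol alone were taken, and a probe set shared by Mef2b and Borcs8 was counted for neither. The members were chosen by the measured signal of Mef2c, which was known to be higher at day 12 across its probe sets, and by the known restraint of Mef2 by class II deacetylases, so the day 12 over day 5 ratios below are a description and not a test. One culture had been differentiated for 12 days and the other for 5 days. Both came from calvarial (skull roof) cells of newborn mice that were negative for the myeloid protein CD11b, and both received ascorbic acid at 50 µg/ml and β-glycerophosphate at 10 mM, which let osteoblasts lay down and mineralise collagen. The strain and any pooling of animals are not given in the sources used here, and the labels record no other treatment. Each culture was hybridised to 1 Affymetrix array, so the values below have neither a replicate spread nor a test, and each difference compares these 2 arrays.

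Mef2 proteins are transcription factors of the MADS-box class that bind an AT-rich element as dimers. Class IIa deacetylases bind Mef2 through their amino-terminal region, have little enzyme activity of their own, and hold Mef2 targets down by bringing corepressors that contain Hdac3. Calcium/calmodulin-dependent kinases, protein kinase D and salt-inducible kinases phosphorylate them, after which 14-3-3 proteins carry them out of the nucleus and Mef2 is released. In mouse bone, Hdac4 restrains Mef2c and Runx2 in growing cartilage, and in osteocytes Mef2c acts on a distant enhancer of Sost, the gene of the Wnt inhibitor sclerostin, which parathyroid hormone lowers through salt-inducible kinases, Hdac4 and Hdac5. In mouse muscle, Hdac9 is itself a Mef2 target.

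Values are signals of the scanner software on a linear scale in arbitrary units, which can be compared between days for 1 probe set but not between probe sets. The 60th percentile of an array served as its floor, which was 44.8 at day 12 and 46.6 at day 5. A gene was counted as measured where its brightest probe set, the one with the highest mean log2 signal, reached the floor on at least 1 array, and 7 members and 10479 genes did so. Values under the floor were raised to it, which makes the fold a bound, written as "at least". Genes that differed by at least 2-fold were called higher or lower. Of the 23 probe sets assigned to 1 member, 19 were measured, 13 of them for Mef2 factors and 6 for deacetylases.

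Promoter sequences are shown because they hold the element that Mef2 itself binds in some members and not in others. Printed are the windows with the core of that element and all windows of Mef2c. The other member windows were searched but are not printed. RefSeq windows of the GRCm38.p6 assembly, from 250 bases before to 50 bases after an annotated start, were found for all 8 members, 14 windows in all, with 3 for Mef2c, 4 for Hdac7 and 2 for Hdac9. Each window is written 5′ to 3′ on the gene's strand. Capitals mark a Mef2 core (CTA, any 4 bases, then TAG, on either strand) or an AP-1 site (TGANTCA on either strand).
Mef2a, chr7:67372809-67373108, minus strand: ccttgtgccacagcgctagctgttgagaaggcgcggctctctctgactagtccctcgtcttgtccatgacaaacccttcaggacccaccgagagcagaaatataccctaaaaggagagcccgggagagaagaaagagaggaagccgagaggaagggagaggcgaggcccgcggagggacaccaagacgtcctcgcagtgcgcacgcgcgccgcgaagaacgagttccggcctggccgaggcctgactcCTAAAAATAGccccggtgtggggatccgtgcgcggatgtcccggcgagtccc
Hdac5, chr11:102230123-102230422, minus strand: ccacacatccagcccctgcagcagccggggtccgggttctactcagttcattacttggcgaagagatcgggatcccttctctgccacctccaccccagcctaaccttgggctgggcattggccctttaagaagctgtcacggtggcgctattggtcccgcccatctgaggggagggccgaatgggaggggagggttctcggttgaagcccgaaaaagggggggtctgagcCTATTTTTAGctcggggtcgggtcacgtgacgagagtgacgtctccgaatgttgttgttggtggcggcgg
Hdac9, chr12:34528840-34529139, minus strand: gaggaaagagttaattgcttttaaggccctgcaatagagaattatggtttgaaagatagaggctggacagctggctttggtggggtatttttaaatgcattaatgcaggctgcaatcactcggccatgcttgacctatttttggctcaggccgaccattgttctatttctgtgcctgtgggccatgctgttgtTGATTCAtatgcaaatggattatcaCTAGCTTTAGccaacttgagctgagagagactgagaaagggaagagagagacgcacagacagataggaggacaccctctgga
Mef2c, chr13:83503784-83504083, plus strand: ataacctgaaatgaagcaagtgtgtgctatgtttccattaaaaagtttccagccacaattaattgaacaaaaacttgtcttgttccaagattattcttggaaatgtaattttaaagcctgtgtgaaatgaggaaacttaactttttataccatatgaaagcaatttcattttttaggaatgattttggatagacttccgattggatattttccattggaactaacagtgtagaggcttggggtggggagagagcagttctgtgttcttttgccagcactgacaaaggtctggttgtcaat
Mef2c, chr13:83523406-83523705, plus strand: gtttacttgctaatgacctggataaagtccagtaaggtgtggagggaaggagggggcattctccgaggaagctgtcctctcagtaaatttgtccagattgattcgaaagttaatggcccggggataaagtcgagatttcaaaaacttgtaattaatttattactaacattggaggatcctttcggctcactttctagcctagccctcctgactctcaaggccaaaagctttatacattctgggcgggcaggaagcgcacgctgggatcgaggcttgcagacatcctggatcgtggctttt
Mef2c, chr13:83573357-83573656, plus strand: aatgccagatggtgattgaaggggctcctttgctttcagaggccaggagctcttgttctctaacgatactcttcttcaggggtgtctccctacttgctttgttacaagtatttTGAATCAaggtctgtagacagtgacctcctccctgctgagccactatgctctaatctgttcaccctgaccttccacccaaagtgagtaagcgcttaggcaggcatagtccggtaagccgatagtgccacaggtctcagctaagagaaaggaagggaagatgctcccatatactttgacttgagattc

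The Mef2 core was found in 3 of the 14 member windows (21.4%), against 1211 of 32851 windows in the whole table (3.69%). In Mef2a it read CTAAAAATAG and lay across the annotated start. In Hdac5 it read CTATTTTTAG and ended 10 bases before the start, and in 1 of the 2 Hdac9 windows it read CTAGCTTTAG and ended 22 bases before the start. The Mef2 consensus was also searched on both strands, as a C or T, then TA, then 4 bases that are each A or T, then TA, then an A or G. It can match the same bases as the core, but neither motif contains the other. It matched the Mef2a and Hdac5 sites but not that of Hdac9 and occurs in 3.19% of all windows. None of the Mef2c windows held the core or the consensus, which says only that these letters are absent from those windows. Of the 4 other motifs searched, the AP-1 site was in 3 member windows (Mef2c, Hdac7 and Hdac9) and in 7.81% of all windows, the hypoxia response core ACGTG was in 1 (Hdac5) against 19.6%, and the Runx site TGTGGT and the cAMP response element TGACGTCA were in none, against 16.8% and 1.79%. A match is a description of the letters and not evidence that a factor binds there.

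Mef2c, the family member best known from bone, muscle and heart development, was higher at day 12 in all 5 of its probe sets. The brightest gave 3138 at day 12 against 393 at day 5, a 7.99-fold difference. The next had 1891 at day 12 and 230.1 at day 5, which is 8.22-fold. The third had 1811 at day 12 and 148 at day 5, the furthest apart of the 5 at 12.3-fold. All 5 lay above the floor on both arrays, so none of these folds is a bound. The remaining probe sets had 1322 and 916 at day 12, against 135 and 97.8 at day 5, which are 9.80-fold and 9.37-fold higher. On the log2 scale the 5 ratios ran from 3.0 to 3.62 with a median of 3.23. Their range of 0.62 was close to the median range of 0.54 found in the 183 genes with 5 or more measured probe sets, and 3 of the 5 were designed from the same sequence record, so they are not independent.

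By its brightest probe set Mef2c ranked 31 of 10479 measured genes, and 3.56% of measured genes were at least 2-fold and 1.67% at least 3-fold higher at day 12. In 3 of the 183 genes with 5 or more measured probe sets (1.64%) every probe set was at least 2-fold higher, and Mef2c was one of them. The others, named here after their values were seen, were Ndrg1, with log2 ratios from 1.53 to 2.07, and Pvr, from 1.03 to 2.14. With 2 arrays a pattern is only 1 ratio, and the 5 genes above the floor on both days with the log2 ratio closest to that of Mef2c were Sgms2, Prelid2, P3h2, Fat3 and Bnip3, all within 0.09 of it. Sgms2, a sphingomyelin synthase gene, had 4188 at day 12 against 519 at day 5. Prelid2 had 1035 at day 12 and 128 at day 5, and P3h2, a collagen prolyl hydroxylase gene, had 485 at day 12 and 58.4 at day 5. Fat3, an atypical cadherin gene, had 894 at day 12 and 116 at day 5, and Bnip3, a mitochondrial gene induced by low oxygen, had 7905 at day 12 and 1053 at day 5.

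**Figure D1:**
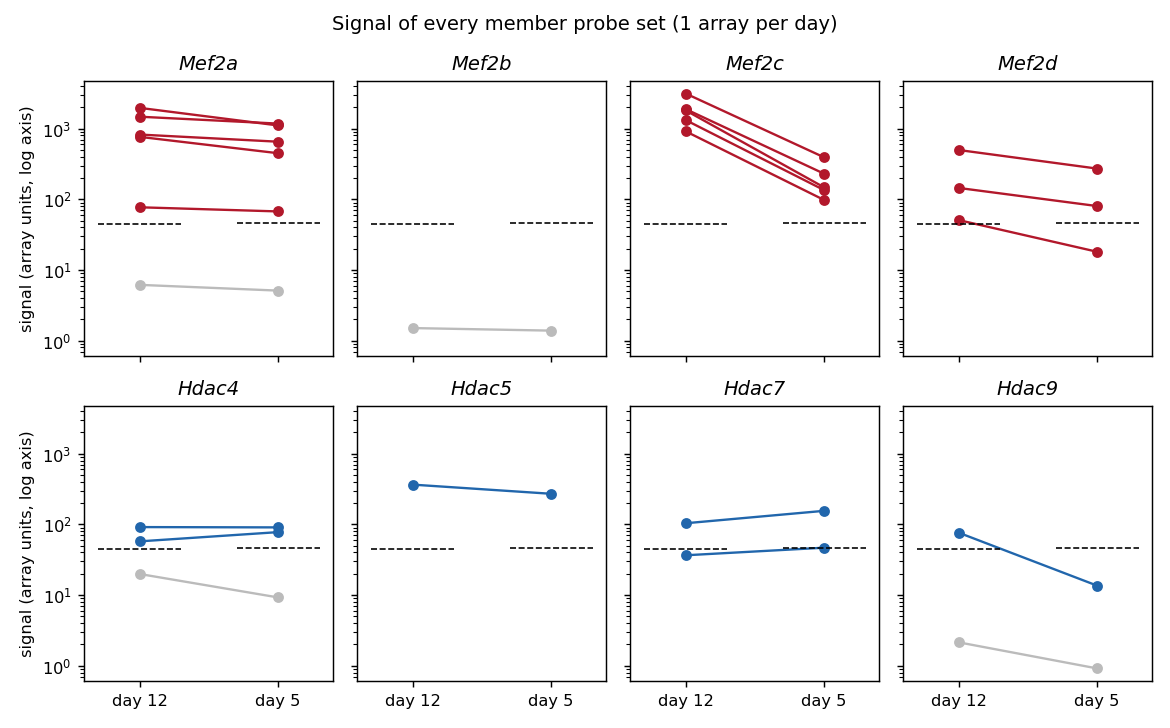
Deposited signal (log axis, array units) of every probe set of the 8 members, with day 12 on the left and day 5 on the right of each panel. Each line joins 1 probe set, grey lines lie below the floor on both arrays, and dashed marks show the floors of 44.8 at day 12 and 46.6 at day 5. All 5 Mef2c lines drop steeply towards day 5, while those of the other members are flatter or near the floor.

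Mef2a and Mef2d, the broadly expressed members of the family, were also above their day 5 signal but by less than 2-fold. At the lower threshold of 1.5-fold both would be called, as would 7.25% of measured genes. The brightest Mef2a probe set had 1967 at day 12 against 1109 at day 5, a 1.77-fold difference. Its other 4 measured probe sets had log2 ratios of 0.32, 0.34, 0.77 and 0.20. One of those at the low end was bright as well, with 1475 at day 12 and 1178 at day 5. It was designed from the same record as the brightest, and the 3 probe sets from that record spread over 0.50 on the log2 scale. The sixth, at 6.15 on day 12 and 5.10 on day 5, was below the floor on both arrays. So the direction was shared by all 5 measured Mef2a probe sets, and the size was not.

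Mef2d had 498 at day 12 against 272 at day 5 in its brightest probe set, which is 1.83-fold. A second probe set, from another sequence record, gave almost the same difference, with 145 at day 12 and 80.2 at day 5 (1.80-fold). The third had 50.8 at day 12 and a signal under the floor, 18.1, at day 5, so its difference is at least 1.09-fold. Across the family 13 of 13 measured probe sets had a log2 ratio above 0, against 42.8% of all 17431 measured probe sets of 1 gene. They are 5 of Mef2c, whose known rise chose the members, 5 of Mef2a and 3 of Mef2d. Probe sets of 1 gene are not independent, so this count is only a description. Those at least 2-fold higher were the 5 of Mef2c, where 3.16% of all measured probe sets were that much higher. The log2 ratio of Mef2c exceeded that of Mef2d by 2.13 and that of Mef2a by 2.17, and its lowest probe set was above the highest of any other member.

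Mef2b, a member best known from germinal centre B cells, was not measured. Its own probe set had 1.5 at day 12 and 1.38 at day 5, far below the floor. A further probe set is annotated to both Borcs8 and Mef2b, and had 416 at day 12 and 613 at day 5, a log2 ratio of -0.56. That signal cannot be given to either gene and was counted for neither.

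**Figure D2:**
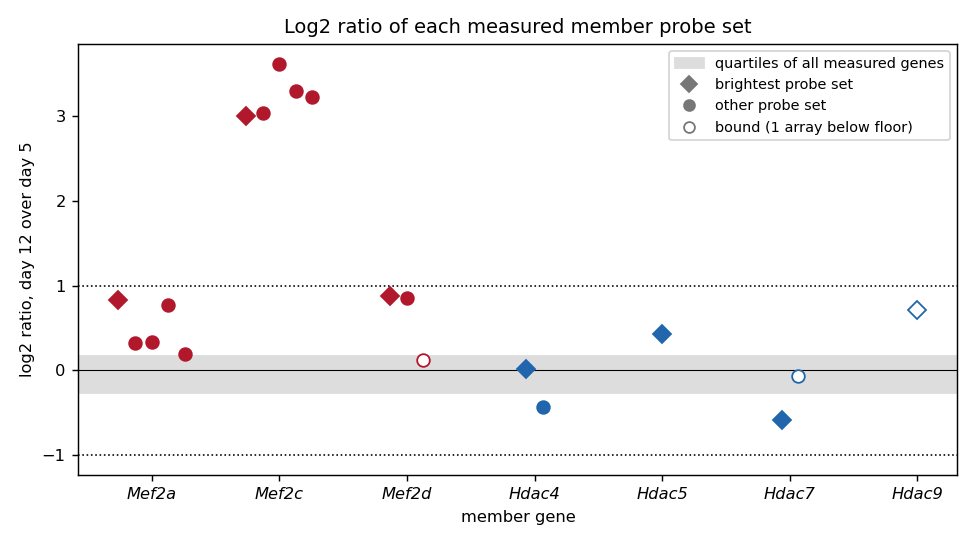
Log2 ratio of day 12 over day 5 for each of the 19 measured probe sets, by gene, with Mef2 factors in red and class IIa deacetylases in blue. Diamonds are brightest probe sets, open symbols are bounds, dotted lines mark 2-fold, and the grey band spans the quartiles of all measured genes, -0.27 to 0.17. Mef2c lies between 3.0 and 3.62, and no other member passes 2-fold.

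The 4 class IIa deacetylases did not move as a group, and none differed by 2-fold in either direction, where 3.56% of measured genes were called higher and 1.73% lower. Hdac5, which with Hdac4 acts on Mef2c in osteocytes, had 365 at day 12 against 271 at day 5, or 1.35-fold, in its single probe set. Hdac4 had 91.5 at day 12 and 90.6 at day 5 in its brightest probe set, a log2 ratio of 0.01. A second Hdac4 probe set had 57.5 at day 12 and 77.7 at day 5, a log2 ratio of -0.43, so the direction of Hdac4 differed between its probe sets. The third, at 19.9 on day 12 and 9.25 on day 5, lay below the floor on both arrays.

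Hdac7, known from endothelial cells and thymocytes, was the only member whose brightest probe set was lower at day 12, with 104 at day 12 against 155 at day 5, a log2 ratio of -0.58. That is just short of 1.5-fold lower, which 7.7% of measured genes reached. Its other probe set had 36.5 at day 12, below the floor, and 46.8 at day 5, just above it, and gave a bound of -0.06. Hdac9 had 76.3 at day 12 and 13.6 at day 5, where it was below the floor, and was at least 1.64-fold higher. With the floor lowered to the 50th percentile it was at least 3.88-fold higher, and with the 75th percentile it was not measured. Its second probe set was below the floor on both days, at 2.14 on day 12 and 0.915 on day 5. Over the family 3 of 6 measured probe sets had a log2 ratio above 0 and 3 below, and none was 2-fold lower, where 1.72% of all measured probe sets were. By brightest probe set 3 of 4 genes lay above 0, against 43.6% of measured genes, but Hdac4 did so by only 0.01. With the median over probe sets 2 of 4 lay above 0 and 2 below. By brightest probe set the difference between Hdac5 and Hdac7 was 1.01 on the log2 scale.

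**Figure D3:**
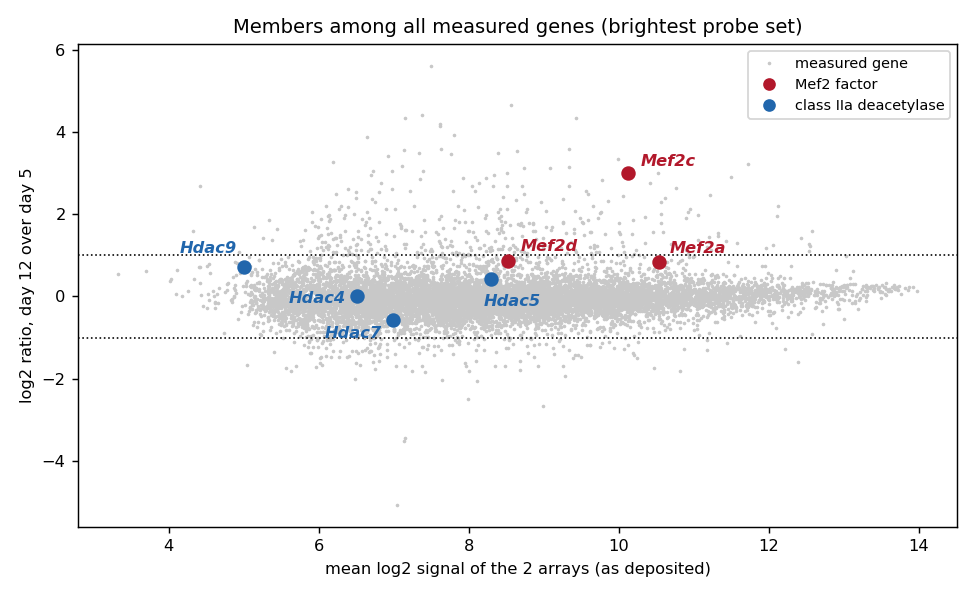
Log2 ratio of day 12 over day 5 against the mean log2 signal of both arrays for the brightest probe set of 10479 measured genes (grey), with Mef2 factors in red and class IIa deacetylases in blue. Dotted lines mark 2-fold. Mef2c stands above the cloud at 3.0. Mef2a, Mef2d and Hdac9 lie above most genes, between 0.71 and 0.87, and Hdac7 lies below most genes at -0.58. The value of Hdac9 is a bound.

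Signs of the cell types that use these genes were read on the same arrays. Of 8 measured osteoblast markers 7 were called higher at day 12, where 3.56% of all measured genes were called higher. Among the 7 was Ibsp, the bone sialoprotein gene, at 10334 on day 12 against 1098 on day 5. The phosphatase gene Alpl was 4.90-fold and Ifitm5, a membrane protein gene of mineralising osteoblasts, 12.1-fold higher, and Sp7 and Pth1r are given below. Of 4 measured osteocyte markers 3 were called higher, as Mef2c was, and the median log2 ratio of the 4 was 3.13. That median is the midpoint of the bounds of Phex and Mepe, and it ran from 1.17 to 3.94 across 8 alternatives. The matrix protein gene Dmp1 was 20.2-fold higher, and Phex and Mepe, both below the floor at day 5, were at least 11.9-fold and at least 6.47-fold higher. Mepe was not called with the 75th percentile floor, and Dmp1 and Phex are on the osteoblast list too. Pdpn, a gene of early osteocytes, had a log2 ratio of -0.63, and Sost and Fgf23 lay below the floor on both days. Of 14 skeletal muscle markers 12 lay below the floor on both days, including the myogenic factors Myod1, Myog, Myf5 and Myf6, and Acta1 had a log2 ratio of -1.69, or -0.42 with the 75th percentile floor. Des, below the floor at day 12, had a bound of -0.13. Of 10 endothelial markers 8 lay below it, including Pecam1 and Cdh5, and so did all 7 lymphocyte markers analysed. Esam and Erg, the measured endothelial genes, had log2 ratios of -0.25 and -0.15. Of 6 neuronal markers 4 lay below it, and Map2 had a bound of -0.08. Tubb3 was 2.38-fold higher, but its log2 ratio was 0.80 with a pseudocount, and it was not measured with the 75th percentile floor.

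Myeloid markers were mostly higher at day 12, as was Mef2c, which macrophages also express. Of 14 of them 12 were measured, and their median log2 ratio was 1.27. The 10 called higher were Adgre1, Cd68, Csf1r, Ptprc, Lyz2, Cd14, Tyrobp, Fcer1g, C1qa and C1qb, where 3.56% of all measured genes were called higher. Ptprc and Cd14 were not called with the 75th percentile floor or with a pseudocount. Cx3cr1 had a log2 ratio of -0.02, and Aif1, below the floor at day 5, had a bound of 0.23. The summed signal of the 12 was 12746 at day 12 against 5134 at day 5, a sum that bright probe sets dominate, since Lyz2 alone gave 5984 at day 12 and 2649 at day 5. Tyrobp had the largest difference of the 12, at 4.38-fold. Itgam, which encodes CD11b, was below the floor on both days, at 35.4 on day 12 and 14.6 on day 5, and so was Spi1. Of 12 measured chondrocyte markers, from cells in which Hdac4 and Mef2c also act, 8 were at least 2-fold lower, where 1.73% of measured genes were. The 8 were Matn1, Matn3, Col9a1, Col9a2, Col9a3, Hapln1, Snorc and Ucma, and the median log2 ratio of the 12 was -1.47. Ihh, a hedgehog gene of prehypertrophic chondrocytes, went the other way, with 99.1 at day 12 and 9.52 at day 5, below the floor, and was at least 2.12-fold higher. It was not measured with the 75th percentile floor. The summed chondrocyte signal was 10458 at day 12 against 25652 at day 5. The part of these cells in the values of the members was not tested, and in bulk RNA more cells of a type and more RNA per cell cannot be told apart.

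The other deacetylases differed little, on arrays where 3.56% of measured genes were called higher and 1.73% lower. All 7 of Hdac1, Hdac2, Hdac3 and Hdac8 (class I), Hdac6 and Hdac10 (class IIb) and Hdac11 (class IV) were measured, none passed 2-fold, and all had a log2 ratio below 0, as 56.4% of measured genes did. After quantile normalisation 6 of 7 and after loess 5 of 7 were below 0. Hdac3, the enzyme of the corepressor complex that class IIa members recruit, had the lowest, -0.44, with 718 at day 12 and 973 at day 5. Hdac1 had -0.36, Hdac6, a tubulin deacetylase, -0.28, Hdac8 -0.17, Hdac2 -0.14, Hdac11 -0.09 and Hdac10 -0.02. Their median was -0.17, against -0.05 over all measured genes, 0.22 for the class IIa genes and 0.87 for the Mef2 factors. The sirtuins, an unrelated class of deacetylases, had a median of 0.08 over 6 measured genes and none past 2-fold. Sirt7 was the lowest at -0.52, and Sirt6 and Sirt3 had 0.17 and 0.08. Sirt5 had 0.19 in its brightest probe set but -0.31 in its other measured one.

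Among the kinases that send class IIa deacetylases out of the nucleus, none of 16 measured passed 2-fold in its brightest probe set, and the median was -0.09. Over all measured genes 3.56% were called higher and 1.73% lower. By brightest probe set the largest differences among these kinases were downward. Mark1, a microtubule-affinity kinase, had 80.5 at day 12 against 141 at day 5 (log2 ratio -0.80). Prkd1, a protein kinase D gene, had 244 at day 12 and 412 at day 5 (-0.76), and -1.07 in its other probe set, which is past 2-fold. Prkd2 had a log2 ratio of -0.61. Sik2, a salt-inducible kinase gene, had -0.39 in its brightest probe set but 0.01 in its other measured one. Sik3 had 0.12 in its brightest probe set and 0.50 in its highest. Sik1 was below the floor on both days. The calmodulin kinase genes Camk2d, Camk2g and Camk4 had 0.14, -0.12 and -0.01. The other measured probe set had 0.69 for Camk2d, -0.18 for Camk2g and -0.29 for Camk4. The 7 genes of the 14-3-3 proteins lay between -0.34 (Ywhah) and 0.02, with Ywhag and Ywhae both at -0.11 and Sfn, below the floor at day 12, at a bound of -0.26.

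Of the genes for calcineurin, protein phosphatase 2A and their regulators, Rcan2, a calcineurin inhibitor, was the 1 of 12 measured past 2-fold. Over all measured genes 3.56% were called higher and 1.73% lower. Rcan2 had 457 at day 12 against 155 at day 5, which is 2.95-fold higher, while its relative Rcan1 had a log2 ratio of -0.22. The calcineurin subunit gene Ppp3r1 had 0.31 and Ppp3ca 0.16, and Ppp2r1b, a scaffold subunit gene of protein phosphatase 2A, had -0.28. Among corepressors and class IIa partners, Bcl6, a repressor that binds class IIa deacetylases, had 348 at day 12 and 136 at day 5 (2.55-fold) and was the 1 of 9 past 2-fold. With the 75th percentile floor its log2 ratio was 0.94. Gps2, a subunit of the Hdac3 corepressor complex, had -0.65. Rfxank, an ankyrin protein gene, had at least 0.55 in its brightest probe set but -0.34 in the other, and its relative Ankra2 had 0.28.

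Genes for Mef2 coactivators and for kinases that activate Mef2 stayed within 2-fold in all 13 measured, with a median of -0.14. Over all measured genes 3.56% were called higher and 1.73% lower. Ncoa2 had a log2 ratio of -0.39, Cdk5 -0.35, Carm1 -0.29 and Map2k3, which activates p38 kinase, -0.44, and the p38 gene Mapk14 itself had 0.18. The acetyltransferase gene Ep300 had -0.08.

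**Figure D4:**
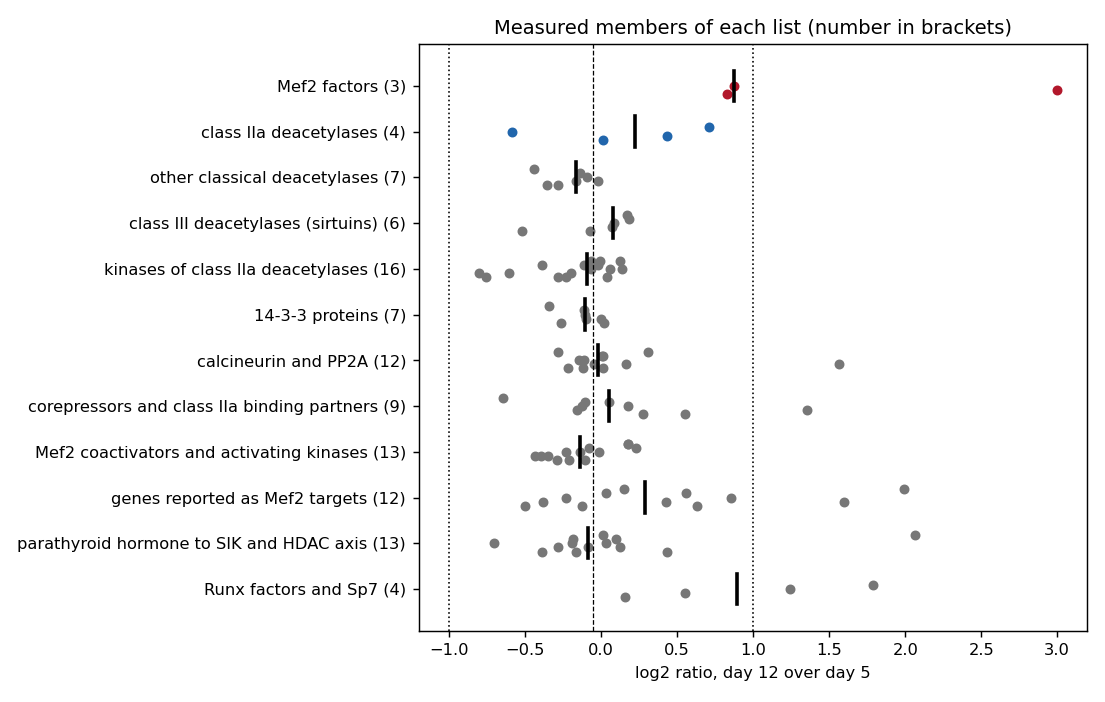
Log2 ratio of day 12 over day 5 for each measured gene of 12 lists around the Mef2 factors and class IIa deacetylases, with the number measured in brackets and a bar at each list's median. The dashed line is the median of all measured genes, -0.05, and dotted lines mark 2-fold. Medians of the Mef2 factors and of the Runx factors with Sp7 lie at 0.87 and 0.89, and those of the other lists between -0.17 and 0.29.

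Genes reported as Mef2 targets in muscle, neurons, vessels or bone were often below the floor in these cultures. Of 28 with a value, 16 lay below the floor on both days, among them Sost, at 41.5 on day 12 and 0.982 on day 5, Col10a1, Ckm and Smyd1. Of the 12 measured, 2 were at least 2-fold higher and none at least 2-fold lower, with a median of 0.29. Over all measured genes 3.56% were called higher and 1.73% lower. With the 50th percentile floor 17 of the listed genes were measured and 4 were called higher, with Sost and Nr4a3 added. At that floor 510 of all 12181 measured genes were called higher. Klf4, a Krüppel-like factor, had 4234 at day 12 against 1063 at day 5 (3.98-fold). Myom1, a gene of the sarcomere M-band, had 160 at day 12 and 52.8 at day 5 (3.03-fold), and was not measured with the 75th percentile floor. The nuclear receptor gene Nr4a1 was 1.81-fold higher and the collagenase gene Mmp13 1.54-fold. Genes that are listed here for muscle rest on experiments in muscle, and none is known from these values to be bound by Mef2 in osteoblasts.

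In the path from parathyroid hormone to Hdac4 and Hdac5, the receptor gene Pth1r was the 1 of 13 measured genes past 2-fold. It had 3949 on day 12 against 945 on day 5 (4.18-fold). Over all measured genes 3.56% were called higher and 1.73% lower. Tnfsf11, the osteoclast differentiation factor that parathyroid hormone raises, had 44.8 at day 12 and 73.2 at day 5, a log2 ratio of -0.71 with the day 12 signal at the floor. Among the Runx factors and Sp7 (osterix), Sp7 and Runx3 were 3.45-fold and 2.36-fold higher at day 12. Runx1 had a log2 ratio of 0.55 in its brightest probe set and 0.01 in its lowest, and the cofactor gene Cbfb had 0.16. Runx2, which Hdac4 restrains in cartilage, had no probe set with its symbol alone and was not analysed.

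**Figure D5:**
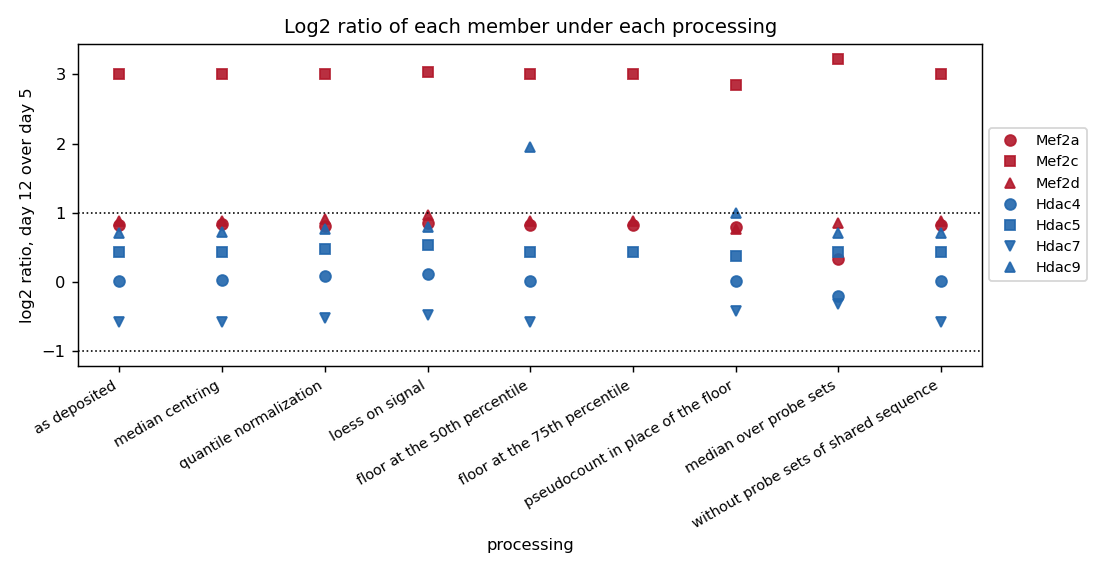
Log2 ratio of day 12 over day 5 of each measured member (y axis) as deposited and under 8 other ways of processing (x axis), with Mef2 factors in red and class IIa deacetylases in blue and dotted lines at 2-fold. A gap means that the gene was not measured under that setting. Mef2c stays between 2.85 and 3.23, Mef2a and Mef2d stay between 0.34 and 0.96, and Hdac9 passes 2-fold with the 50th percentile floor.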

How the data were processed

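RNA from 1 culture at day 12 and 1 at day 5 was labelled as biotinylated cRNA and hybridised to 1 array each, per the labels' protocols. The authors deposited 1 table of signal intensity on a linear scale for 45101 probe sets, made with GCOS 1.4 and MAS5, per the submitters' processing notes. Settings, detection calls and the genome build are not given in the sources used here. Both arrays had a trimmed mean (2% left out at either end) of 200.0 and so had been scaled to 1 target, which hides any change in total RNA per cell. Of the probe sets other than 64 controls, 34945 had 1 gene symbol in the platform annotation, 932 several and 9160 none. Symbols were updated through Entrez numbers for 34741, and probe sets with several or none were not named.

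The deposited values were used without further normalisation. With 1 array per day no test was possible, and log2 ratios of the floored signals were called at 2-fold. The number of arrays limits the precision. In 4446 genes the 2 brightest measured probe sets differed by a median of 0.17 in log2 ratio, which covers probe error only. Short probes can also bind related sequences, and bright signals can be compressed. The members, the 20 gene lists and the rules were chosen with earlier results of these data known. The rule names every member probe set, list members past 2-fold, up to 4 members per list with the largest ratio, all other classical deacetylases and Runx factors analysed, and the 5 genes nearest to Mef2c in log2 ratio. Genes named beyond it (Ppp3ca, Mapk14, Ep300, Sik3, Nr4a3, Cx3cr1, Aif1, the calmodulin kinases and the genes below the floor) were chosen after their values were seen. Listed genes without a probe set of 1 symbol were not analysed here. The code was tested on simulated data, and 10 alternatives were tried. Python 3.11.15 was used with pandas 2.3.3, numpy 2.4.6, statsmodels 0.14.6 and matplotlib 3.10.9.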

Additional observations from a re-analysis of the deposited data

How the results depend on the processing

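The number of members called higher was 1 (Mef2c) as deposited and under 8 of 10 alternatives, which include a call at 3-fold. It was 2 with the 50th percentile floor, which adds Hdac9, where 510 of 12181 measured genes were called higher. At a threshold of 1.5-fold it was 4, which adds Mef2a, Mef2d and Hdac9, where 7.25% of measured genes were called higher. None was 2-fold lower under any of the 10, and at 1.5-fold Hdac7 fell just short. The log2 ratio of Mef2c was 3.23 with the median over probe sets, and across 8 alternatives it ran from 2.85 to 3.23. That of Mef2a was 0.34 with the median over probe sets, and Hdac4 turned to -0.21, since its probe sets disagree. With the 75th percentile floor Hdac4, Hdac7 and Hdac9 were not measured, so dim members are limited by signal over background. A pseudocount of 50 in place of the floor put Hdac9 just under 2-fold. The median over all genes stayed within 0.1 of the deposited value under each scaling.

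Over all genes, 373 were called higher and 181 lower as deposited. Counts were 510 higher and 297 lower at a 50th percentile floor, 223 and 74 at a 75th percentile floor, 290 and 92 with a pseudocount, 760 and 807 at 1.5-fold and 175 and 36 at 3-fold. No paired analysis was possible because each day had 1 array.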

Other observations

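RefSeq promoter windows were found for 295 of the genes called higher at day 12, 392 windows in all. The Mef2 consensus was in 13 of these windows (3.32%), against 171 of 11010 windows of all measured genes (1.55%) and 1047 of 32851 windows in the whole table (3.19%), and in 1 of 167 windows (0.599%) of genes at least 2-fold lower. The Mef2 core was in 4.34% of the windows of higher genes and 2.40% of those of lower genes, against 3.02% of measured genes and 3.69% of the whole table. These shares were not tested. Windows of the genes reported as Mef2 targets held the consensus in 7 of 25 cases (28.0%). That list was made from reports of Mef2 targets, so this share says nothing about these cultures.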
